A study of Mus musculus with 4 samples.

Results

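The genes of the ATF4 stress response and of serine synthesis were followed in mouse E14 embryonic stem cells carrying an shRNA against the endogenous retrovirus MERVL (spelled MuERVL in the series' design text) or a random shRNA. The 10 genes were taken by symbol from the 43496 Ensembl genes of the deposited count table: Atf4, Ddit3, Trib3, Sesn2, Chac1, Asns, Phgdh, Psat1, Shmt2 and Mthfd2. Each symbol matched 1 row, and all 10 genes passed the filter on low counts.

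Each group had 2 libraries: MERVL shRNA replicates 1 and 2, whose genotype label reads MERVL knocked down, and random shRNA replicates 1 and 2, labelled wild type. E14 is a male mouse embryonic stem cell line, and all 4 libraries came from it, grown on gelatin with 15% serum and 10 ng/ml LIF. Per the labels' protocols, cells received 1000 ng of pSuper puro plasmid, a vector that expresses a short hairpin RNA, and 24 h later puromycin at 1 µg/ml for 4 days, which both groups share. The medium also contained GlutaMAX, nonessential amino acids and β-mercaptoethanol in both groups. The random hairpin is the only control, and no untransfected cells were analysed here. The labels do not give the origin of the 2 libraries of a group, whether from 1 culture or several. The p-values below therefore reflect the spread among libraries, and that spread may be technical. All fits draw the spread of a gene partly from other genes, and fits with 1 library left out use fewer libraries.

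ATF4 is a bZIP transcription factor whose protein is made mainly when the initiation factor eIF2 is phosphorylated, as under amino acid shortage, endoplasmic reticulum stress or viral double-stranded RNA (the integrated stress response). It then switches on genes that import and make amino acids, among them the enzymes that build serine from a glycolytic intermediate and pass its carbon to folate in mitochondria. Because much of this control acts on translation, mRNA of Atf4 is not a measure of ATF4 protein.

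Many ATF4 targets carry a composite of half-sites for C/EBP and ATF factors near their start. Promoters, from 250 bases before to 50 bases after each start, were taken from RefSeq on GRCm38.p6, the assembly also called mm10, where the 10 genes had 11 start sites. They were searched on both strands for TGATGNAA, the core of that composite, and for TGNTGCAAT, a related form. The letters were chosen with the members' promoters and known ATF4 sites in view, and a sequence that meets both forms counts for both. Either motif was found in 4 of the 11 promoters, those of Chac1, Trib3, Asns and Psat1, against 4.42% of all 32851 promoters (3.97% for TGATGNAA and 0.673% for TGNTGCAAT). These genes are known as ATF4 targets partly through such elements, so the matches are no independent evidence, and a match is not a bound site. The 4 stretches shown hold the matches before the start, TGATGNAA in Chac1 and Asns and TGNTGCAAT in Trib3 and Psat1. Capitals mark the match, and letters run 5′ to 3′ on the strand of the gene:
Chac1: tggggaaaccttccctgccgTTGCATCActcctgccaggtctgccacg
Asns: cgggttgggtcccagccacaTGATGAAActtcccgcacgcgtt
Trib3: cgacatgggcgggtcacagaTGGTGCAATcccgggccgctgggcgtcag
Psat1: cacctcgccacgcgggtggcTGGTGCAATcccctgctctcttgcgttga

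The Chac1 stretch lies at chr2:119351029-119351076 on the plus strand and holds the motif on the opposite strand, 193 to 186 bases before the start. The Asns stretch lies at chr6:7693210-7693252 on the minus strand, with the motif 23 to 16 bases before the start. The Trib3 stretch, chr2:152344065-152344113, and the Psat1 stretch, chr19:15925167-15925215, are on the minus strand and share the 9 matched letters, which end 25 and 128 bases before the start. Trib3 also had a TGATGNAA match downstream of its start, which is not shown. These distances are from RefSeq starts, whereas the gene positions given below are from GENCODE. For Asns and Psat1 the GENCODE gene begins further upstream, so both stretches lie inside the positions given for these genes.

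The 2277 MERVL copies counted here summed to 1161 and 572.3 CPM in the MERVL shRNA libraries. In the random shRNA libraries they summed to 4661 and 1431 CPM. Both MERVL shRNA sums thus lay under both random shRNA sums, and random shRNA replicate 1 was far above the rest. Which of these copies the shRNA matches was not examined. CPM is the usual scaling of counts to library size, here from the estimated counts with TMM factors in edgeR. Library totals ran from 11628887 to 16067854 estimated counts. The random shRNA libraries were further apart (Pearson r 0.963 across features on log2 CPM) than the MERVL shRNA libraries (0.989). Random shRNA replicate 2 correlated more closely with MERVL shRNA replicates 1 and 2 (0.98 and 0.976) than with random shRNA replicate 1. Features are not independent replicates. All 10 pluripotency markers were abundant, with summed levels of 9205 and 9951 CPM in MERVL shRNA and 7801 and 8920 CPM in random shRNA libraries. Of 12 feeder or fibroblast markers, Col3a1, Postn, Dcn and Lum were at 0 counts in every library, and the 12 summed to 25.5 and 22.6 CPM with MERVL shRNA against 39.6 and 46.1 CPM with random shRNA; Thy1 made up 8.67 and 6.88 of these in the MERVL shRNA libraries and 23.1 and 28.8 in the random shRNA libraries. The 10 measured markers of the 2-cell-like state, a rare state of embryonic stem cells in which MERVL is active, summed to 588.6 and 440.7 CPM with MERVL shRNA and to 1786 and 701.8 CPM with random shRNA, and random shRNA replicate 1 again stood apart. These sums include Eif1a, a broadly expressed gene of that list, with 269.1 and 262.4 CPM in MERVL shRNA and 262.2 and 275.6 CPM in random shRNA libraries, so they understate the difference in the other 9 markers. Of the marker genes with the smallest p in each list, Fgf4 and Dppa5a stood at a log2 fold change of 0.61 and 0.39, Thy1 and Twist1 at -1.73 and 0.82, and Tcstv1 and Usp17lc at -5.56 and -2.01; none passed in edgeR. The part of these markers in the results below was not tested.

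None of the 10 genes passed the test between the groups (edgeR quasi-likelihood F test, Benjamini-Hochberg adjusted over 15735 genes and 618 MERVL copies, threshold 0.05), where 1 gene of all tested passed (0.00636%). With an unadjusted threshold of 0.05, Atf4 and Trib3 were higher with MERVL shRNA and 0 members were lower; over all genes 4.87% were higher, 6.35% lower and 11.2% either. In 5 members both MERVL shRNA libraries lay above both random shRNA libraries (23.0% of all genes), and in 0 members both lay below (21.9%); over all genes, 44.8% did not overlap in one or other direction. The log2 fold change was positive in 7 members (50.5% of all genes). The median log2 fold change, MERVL shRNA over random shRNA, was 0.15 over the 10 genes and 0.00 over all genes tested. With 1 library left out, the median of the 10 genes ran from 0.03 (without MERVL shRNA replicate 2) to 0.28 (without MERVL shRNA replicate 1). In bulk RNA, a change in the share of cells that express a gene and a change in RNA per cell cannot be told apart.

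Atf4 itself had 264.1 and 265.6 CPM in the MERVL shRNA libraries, against 204.5 and 199.1 CPM in the random shRNA libraries. The groups did not overlap, and the libraries of each group were nearly equal. The absolute log2 ratio between the random shRNA libraries was 0.039 in Atf4, against a median of 0.33 over 15720 genes. It was smaller still in Shmt2, at 0.004, and larger in the other members. How many of all genes were this close was not counted. Means of Atf4 were 264.8 ± 1.06 CPM with MERVL shRNA and 201.8 ± 3.82 CPM with random shRNA (SD, n = 2 each). The log2 fold change was 0.39 ± 0.13 (SE; 95% interval 0.07 to 0.72; unadjusted p = 0.0252), which did not pass over all genes (edgeR adjusted p = 0.331). With any 1 library left out it lay between 0.39 and 0.42. Of these fits it passed when a random shRNA library was left out, with an adjusted p of 0.0142 for replicate 1 and 0.0110 for replicate 2. In those fits 14.3% and 29.3% of all genes passed too. It did not pass when either MERVL shRNA library was left out. The gene lies on chromosome 15, positions 80255184 to 80257541, plus strand, and its estimated counts were whole numbers in all 4 libraries.

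Trib3, a pseudokinase that binds ATF4 and restrains it, had 16.7 and 18.5 CPM in the MERVL shRNA libraries, against 11.99 and 13.7 CPM in the random shRNA libraries. These groups did not overlap either, and the gap between them exceeded the gap within each pair. Counting error alone gave 95% exact Poisson intervals of 14.8 to 18.9 and 16.3 to 20.9 CPM with MERVL shRNA and of 10.3 to 13.8 and 11.7 to 15.9 CPM with random shRNA. Intervals of this kind cover counting error only. Its log2 fold change was 0.46 ± 0.18 (interval 0.01 to 0.90; unadjusted p = 0.0450; edgeR adjusted p = 0.361). With 1 library left out it lay between 0.37 and 0.57, the highest value being that without random shRNA replicate 2. It lies on chromosome 2, positions 152337422 to 152344032, minus strand.

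**Figure D1:**
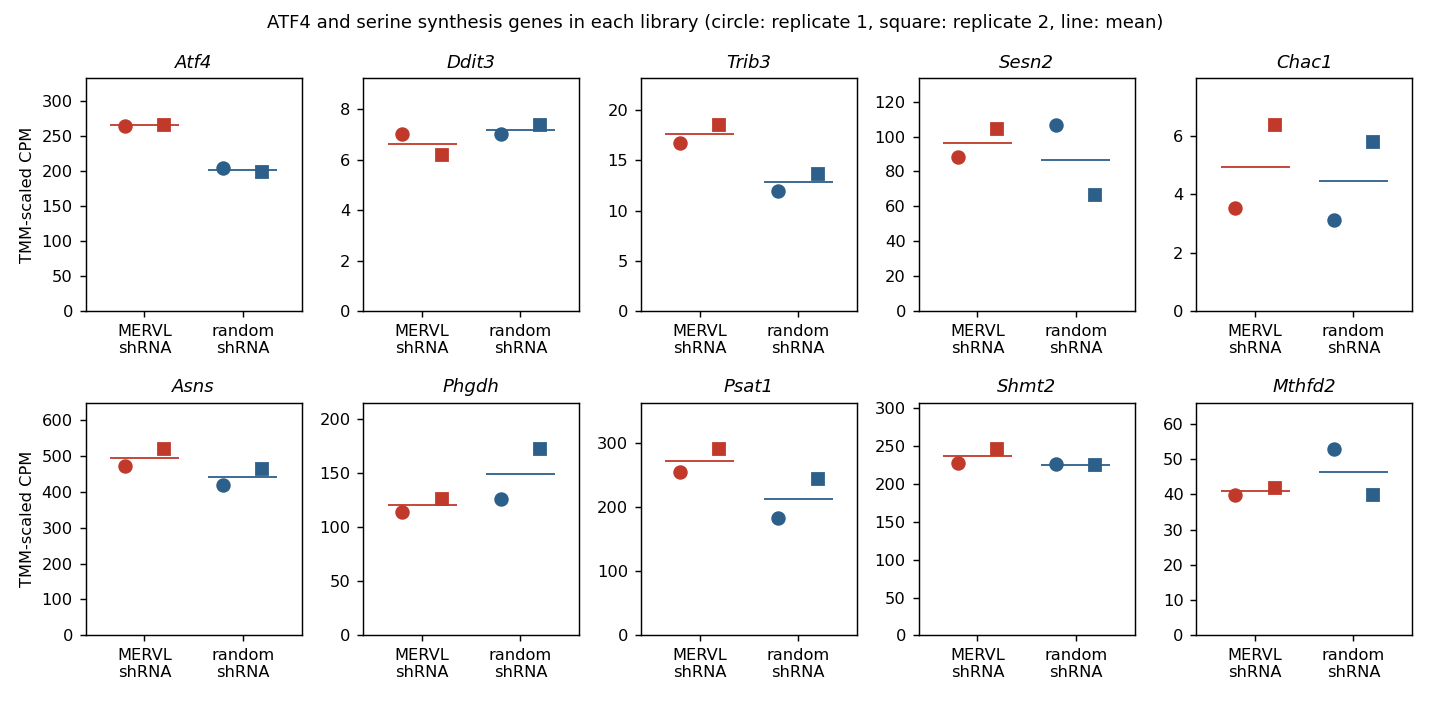
TMM-scaled CPM of the 10 genes (y axis, starting at 0, own scale for each gene) in the MERVL shRNA libraries (red) and the random shRNA libraries (blue); circles are replicate 1, squares replicate 2 and lines the group means. Atf4, Trib3, Psat1, Asns and Shmt2 have both MERVL shRNA libraries above both random shRNA libraries (23.0% of all genes). The difference between group means exceeds the gap within both groups in Atf4, Trib3 and, narrowly, Asns alone of the 10. The share of all genes in which it does so was not counted.

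Ddit3, which encodes CHOP, the bZIP partner of ATF4 that promotes cell death under lasting stress, was near the low end of the members. It had 7.04 and 6.17 CPM with MERVL shRNA, against 7.02 and 7.38 CPM with random shRNA. The groups overlapped, and the log2 fold change was -0.12 ± 0.25 (interval -0.72 to 0.48; edgeR adjusted p = 0.875). The annotated exons of Ddit3 share 68 bases with Mars and 13 with Gm4189, both on the other strand, and 105 with a second Ensembl gene of the same name, which is not analysed here; whether reads were counted by strand is not stated in the labels. Ddit3 lies on chromosome 10, positions 127290774 to 127296288, plus strand.

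Sesn2, a sestrin that senses leucine and inhibits the growth kinase complex mTORC1, had 88.3 and 104.3 CPM with MERVL shRNA, against 106.7 and 66.6 CPM with random shRNA. Both MERVL shRNA values lay between the random shRNA values, which differed 1.60-fold. A log2 fold change of 0.15 ± 0.24 was fitted (interval -0.42 to 0.72; edgeR adjusted p = 0.833). Its direction rested on 1 control library: it was 0.54 when random shRNA replicate 1 was left out and -0.13 when replicate 2 was. Sesn2 is on chromosome 4, positions 132492032 to 132510501, minus strand.

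Among the enzymes that are not part of the serine route, Chac1, which degrades glutathione and is among the most inducible ATF4 and CHOP targets, was the least abundant member. It had 3.52 and 6.39 CPM with MERVL shRNA, against 3.13 and 5.79 CPM with random shRNA, from 49 to 90 estimated counts per library. Replicate 2 was the higher library in both groups, by 1.81-fold with MERVL shRNA and 1.851-fold with random shRNA, which is more than the 1.12-fold change fitted between groups. The 95% exact Poisson intervals of the replicates did not overlap within either group: 2.66 to 4.57 and 5.13 to 7.85 CPM with MERVL shRNA, and 2.31 to 4.13 and 4.50 to 7.32 CPM with random shRNA. The log2 fold change was 0.16 ± 0.45 (interval -0.92 to 1.24; edgeR adjusted p = 0.915), so a 2-fold change upward lay inside the interval. It ran from -0.32 without MERVL shRNA replicate 2 to 0.67 without random shRNA replicate 2, and was -0.23 without random shRNA replicate 1 and 0.55 without MERVL shRNA replicate 1. The gene lies on chromosome 2, positions 119351229 to 119354381, plus strand.

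Asns, asparagine synthetase, was the most abundant member. It had 472.4 and 518.1 CPM with MERVL shRNA, against 418.5 and 464.1 CPM with random shRNA. The groups did not overlap, but the lowest MERVL shRNA value was close to the highest random shRNA value. The log2 fold change was 0.17 ± 0.15 (interval -0.20 to 0.53; edgeR adjusted p = 0.692), and with 1 library left out it lay between 0.10 and 0.26. Asns lies on chromosome 6, positions 7675169 to 7693254, minus strand.

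The first steps of serine synthesis had point estimates of opposite sign, neither past the test. Phgdh, the dehydrogenase that commits 3-phosphoglycerate to serine, had 114.1 and 126.4 CPM with MERVL shRNA, against 126.0 and 172.0 CPM with random shRNA. Psat1, the aminotransferase of the next step, had 255.6 and 290.6 CPM with MERVL shRNA, against 183.2 and 243.7 CPM with random shRNA. Psat1 did not overlap between groups, and Phgdh overlapped narrowly, its higher MERVL shRNA value lying just above its lower random shRNA value. The log2 fold changes were -0.31 ± 0.19 for Phgdh (interval -0.75 to 0.14; edgeR adjusted p = 0.529) and 0.36 ± 0.18 for Psat1 (interval -0.09 to 0.80; edgeR adjusted p = 0.458). For both, random shRNA replicate 2 was the higher of its pair, 1.36-fold for Phgdh and 1.33-fold for Psat1. The size of both estimates rested on which random shRNA library was used. Phgdh stood at -0.51 with replicate 1 left out and at -0.05 with replicate 2 left out, and Psat1 at 0.17 and 0.59 in the same fits. Psph, the phosphatase of the last step of serine synthesis and not one of the 10 genes, is named here after its value was seen. It had 50.7 and 51.4 CPM with MERVL shRNA, against 33.7 and 48.6 CPM with random shRNA. Its groups did not overlap, and it did not pass (log2 fold change 0.31 ± 0.20, edgeR adjusted p = 0.548).

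The ratio of Phgdh to Psat1 counts within a library varied less within a group than either gene did. It was 0.447 and 0.435 in the MERVL shRNA libraries, against 0.688 and 0.706 in the random shRNA libraries. The log2 ratio differed by -0.66 between group means and by 0.04 within each pair. This ratio does not depend on how libraries are scaled. The pair was picked after all 45 ratios between members had been seen, as the one with the largest difference between groups relative to the gap within them. Of the 45 ratios, 23 did not overlap between groups, and in 14 the difference between groups exceeded the gap within both. Ratios between other genes were not counted, so neither count describes a trait of the members. Among single genes, 44.8% did not overlap in one or other direction. With 2 libraries per group an exact permutation test could not reach 0.05, and no test was made. A ratio shows unequal change and not which of the genes changed. Phgdh lies on chromosome 3, positions 98313170 to 98339990, and Psat1 on chromosome 19, positions 15904678 to 15947337, both on the minus strand.

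**Figure D2:**
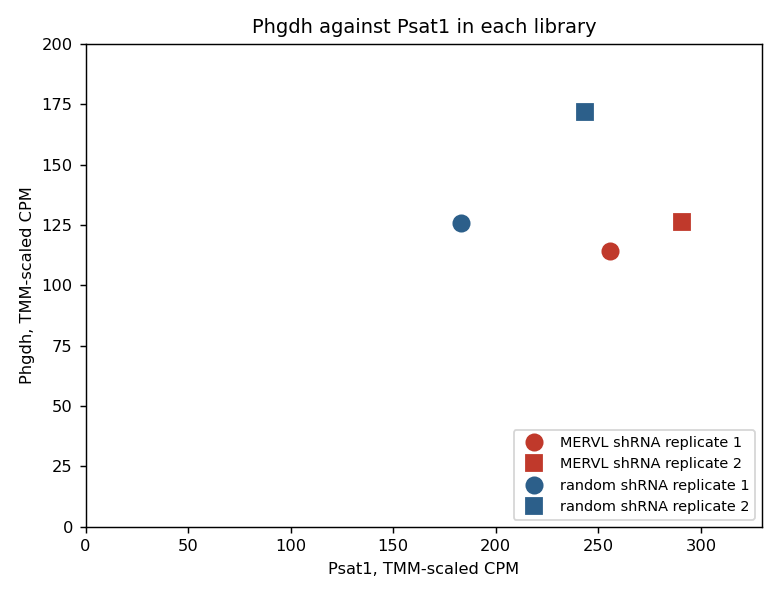
Phgdh (y axis) against Psat1 (x axis), both in TMM-scaled CPM, with 1 point for each of the 4 libraries (red MERVL shRNA, blue random shRNA; circles replicate 1, squares replicate 2). The MERVL shRNA points lie to the lower right of a line through the random shRNA points, with Phgdh to Psat1 ratios of 0.447 and 0.435 against 0.688 and 0.706.

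Among mitochondrial one-carbon enzymes, Shmt2, which moves the carbon of serine onto folate and releases glycine, had 227.4 and 245.6 CPM with MERVL shRNA, against 225.7 and 225.1 CPM with random shRNA. Its groups did not overlap by a narrow margin, since 1 MERVL shRNA library was almost level with the random shRNA libraries, and the log2 fold change was 0.07 ± 0.14 (interval -0.26 to 0.40; edgeR adjusted p = 0.871). Mthfd2, the methylenetetrahydrofolate dehydrogenase that acts after it, had 39.9 and 41.8 CPM with MERVL shRNA, against 52.8 and 39.7 CPM with random shRNA. Only random shRNA replicate 1 departed from the other 3 values. The log2 fold change of Mthfd2 was -0.18 ± 0.18 (interval -0.61 to 0.24, edgeR adjusted p = 0.710). It was 0.04 without random shRNA replicate 1 and -0.36 without random shRNA replicate 2. Shmt2 lies on chromosome 10, positions 127517123 to 127522444, and shares 32 exon bases with Ndufa4l2 on the other strand. Mthfd2 lies on chromosome 6, positions 83305691 to 83325908; both genes are on the minus strand.

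**Figure D3:**
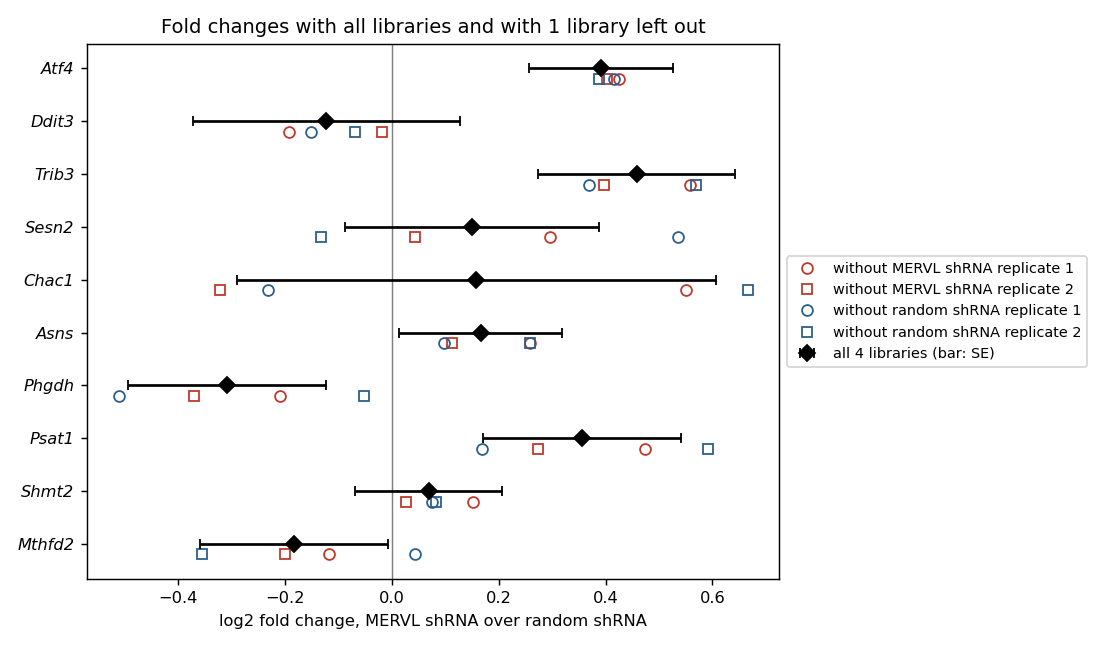
Log2 fold change, MERVL shRNA over random shRNA (x axis), of each gene with all 4 libraries (black diamonds, bars are SE) and with 1 library left out (open symbols, red for a MERVL shRNA library and blue for a random shRNA library). Atf4 stays between 0.39 and 0.42, whereas Chac1 runs from -0.32 to 0.67 and Sesn2 from -0.13 to 0.54.

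On the counts, members passed in no alternative other than those that left out a random shRNA library. RLE scaling and library totals alone left 0.00636% of all genes called and a filter at 1 CPM 0.00676%; leaving out MERVL shRNA replicate 1 or 2 left 0.0122% and 0.012%. DESeq2 called 1.28% of all genes, a fit with no filter 2.86%, a fit with a replicate block 2.3% and limma-voom 0.0% (839 genes higher and 891 lower at an unadjusted threshold of 0.05); none of these called a member. Without random shRNA replicate 1, Atf4 and Sesn2 passed as higher and Phgdh as lower (-0.51, adjusted p = 0.000585), 3 of 10 where 7.03% of all genes passed as higher and 7.32% as lower. Without random shRNA replicate 2, Atf4, Trib3 and Psat1 (0.59, adjusted p = 5.08e-05) passed as higher and Mthfd2 as lower, 4 of 10 where 15.6% passed as higher and 13.7% as lower. Atf4 was the member that passed in both. The lone random shRNA library is assumed in these fits to vary like the MERVL shRNA pair.

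Levels between genes can be compared per length, as mean CPM per kilobase of annotated exon. Asns was highest with 181.1 in MERVL shRNA and 161.4 in random shRNA libraries, followed by Atf4 with 112.3 and 85.6 and Shmt2 with 76.1 and 72.5. Psat1 had 64.2 with MERVL shRNA and 50.2 with random shRNA, and Phgdh 48.4 and 59.9. The single libraries of Psat1 and Phgdh did not overlap on this scale with MERVL shRNA but did with random shRNA, where the order of their means was the other way round. Sesn2 (27.7 with MERVL shRNA, 24.9 with random shRNA), Mthfd2 (11.7 and 13.3) and Trib3 (8.29 and 6.04) came next. Ddit3 (3.86 and 4.20) and Chac1 (3.03 and 2.72) were lowest, and their MERVL shRNA libraries overlapped. Asns, Atf4 and Shmt2 were the most abundant in both groups, and Trib3, Ddit3 and Chac1 the least.

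Of 90 further genes in 7 pathway lists, 88 were tested and 0 passed in edgeR; with an unadjusted threshold of 0.05, 8 were higher and 3 were lower, set against 4.87% and 6.35% of all genes.  Further enzymes of amino acid synthesis and supply, a list that also holds Psph of the serine route, had a median log2 fold change of 0.31 over 13 genes, against 0.00 over all genes tested. Of these, 10 were positive (50.5% of all genes), 6 had both MERVL shRNA libraries above both random shRNA libraries (23.0% of all genes), 0 had both below (21.9%), and 4 were higher at an unadjusted p under 0.05. Gpt2, the mitochondrial alanine aminotransferase, had 59.1 and 69.0 CPM with MERVL shRNA, against 38.0 and 44.4 CPM with random shRNA (log2 fold change 0.64 ± 0.16, edgeR adjusted p = 0.329). Got1, the cytosolic aspartate aminotransferase, had 235.0 and 250.4 CPM with MERVL shRNA, against 182.3 and 163.4 CPM with random shRNA (0.49 ± 0.14, edgeR adjusted p = 0.329). Cth, which makes cysteine from cystathionine, had 62.5 and 66.1 CPM with MERVL shRNA, against 36.9 and 51.8 CPM with random shRNA (0.54 ± 0.19, edgeR adjusted p = 0.337). None of these groups overlapped. The fourth, Pycr1, of proline synthesis, is named after its value was seen. It had 31.9 and 32.0 CPM with MERVL shRNA, against 15.6 and 25.9 CPM with random shRNA (0.63 ± 0.25, edgeR adjusted p = 0.357). Of these 4, Gpt2, Cth and Pycr1 were lower in random shRNA replicate 1 than in replicate 2, and Got1 was higher. How far the list median rests on either random shRNA library was not examined.

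Amino acid transporters had a median of 0.13 over 12 genes, of which 9 were positive, 5 lay above in both MERVL shRNA libraries (23.0% of all genes) and 2 lay below (21.9%). Slc7a3, a cationic amino acid transporter, had 147.4 and 168.8 CPM with MERVL shRNA, against 119.4 and 91.0 CPM with random shRNA (0.59 ± 0.18, edgeR adjusted p = 0.329). Slc38a1 and Slc1a5, both of which carry glutamine, stood at 0.45 ± 0.18 and 0.35 ± 0.15, and neither passed (edgeR adjusted p = 0.351 and 0.385). In the folate and glycine cleavage list the median was -0.14 over 14 genes, with 9 negative, 6 lying below in both MERVL shRNA libraries (21.9% of all genes) and 3 lying above (23.0%). Amt, of the glycine cleavage system, stood at 0.39 ± 0.13 (edgeR adjusted p = 0.329), Sfxn1, the mitochondrial serine carrier, at 0.32 ± 0.14 and Fpgs, which retains folates in cells, at -0.28 ± 0.13. Amt was the single gene of that list with an unadjusted p under 0.05.

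Upstream of ATF4, the 14 genes for eIF2 kinases, the GCN2 cofactors, eIF2, eIF2B and the phosphatase subunits had a median of -0.03, with 6 positive and 8 negative and 0 at an unadjusted p under 0.05. Ppp1r15b, the constitutive phosphatase subunit for eIF2, stood at 0.31 ± 0.14 (edgeR adjusted p = 0.400), Impact, an inhibitor of the kinase GCN2, at -0.31 ± 0.21 and Eif2b1 at 0.23 ± 0.17. The 13 tested partners and regulators of ATF4 spread widely around a median of 0.05. Of these, 4 lay above in both MERVL shRNA libraries (23.0% of all genes) and 4 lay below (21.9%). Cebpa, a C/EBP factor, had 6.22 and 5.96 CPM with MERVL shRNA, against 14.0 and 11.6 CPM with random shRNA (-1.07 ± 0.23, edgeR adjusted p = 0.329). Jdp2, a bZIP repressor, had 7.54 and 11.9 CPM with MERVL shRNA, against 4.98 and 5.12 CPM with random shRNA (0.94 ± 0.30, edgeR adjusted p = 0.329). Jun, a subunit of AP-1, stood at -0.95 ± 0.39 (edgeR adjusted p = 0.366). Maf in this list was not tested because its counts were too low.

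Other ATF4 target genes had a median of 0.08 over 14 tested, with 9 positive (50.5% of all genes) and 5 negative. In 4 of them both MERVL shRNA libraries lay above both random shRNA libraries (23.0% of all genes), and in 4 both lay below (21.9%). Ddit4, an inhibitor of mTORC1, had 22.8 and 26.7 CPM with MERVL shRNA, against 35.2 and 67.0 CPM with random shRNA (-1.04 ± 0.30, edgeR adjusted p = 0.329), and it was the single gene of that list with an unadjusted p under 0.05. Bbc3, a cell death gene, stood at -0.39 ± 0.17 and the stress cytokine Gdf15 at 0.66 ± 0.39. Fgf21 had too few counts to be tested. The 8 paralogues of members had a median of -0.04 with 0 at an unadjusted p under 0.05. Atf5, the closest relative of Atf4, had 15.4 and 17.3 CPM with MERVL shRNA, against 42.9 and 12.5 CPM with random shRNA, and so departed in random shRNA replicate 1 alone (-0.77 ± 0.51, edgeR adjusted p = 0.575). Shmt1 and Trib2 stood at -0.17 ± 0.15 and 0.39 ± 0.34.

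**Figure D4:**
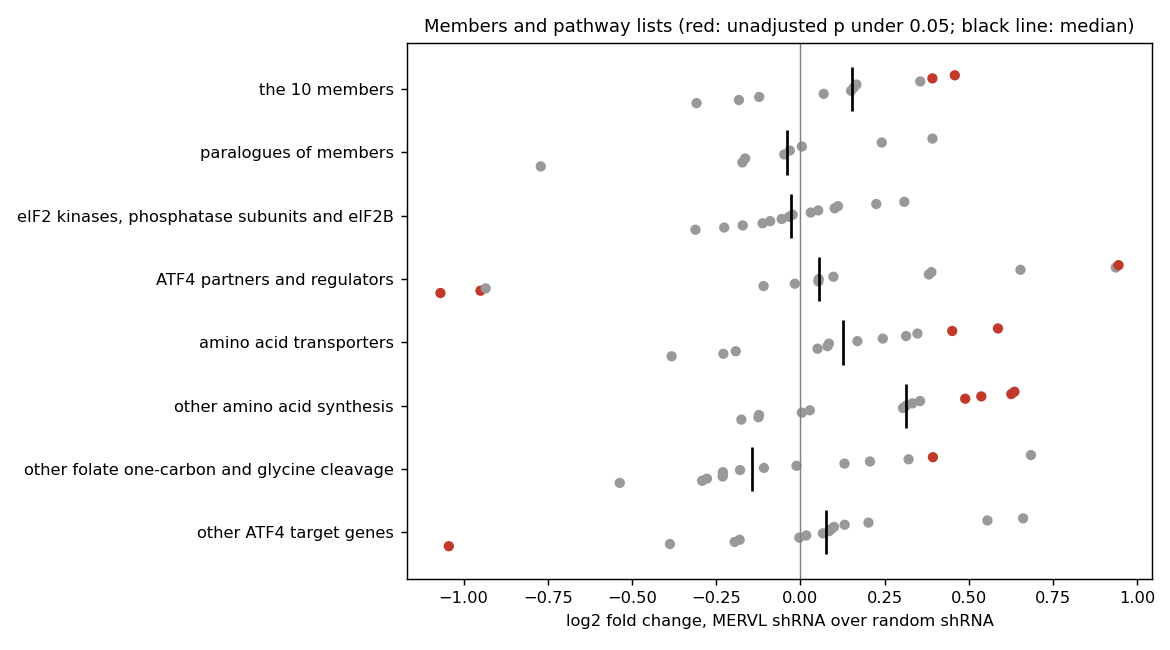
Log2 fold change, MERVL shRNA over random shRNA (x axis), of each tested gene in the member group and the 7 pathway lists (rows); black lines are list medians and red points have an unadjusted p under 0.05. Medians lie between -0.14 for the folate list and 0.31 for amino acid synthesis, and no point passed after adjustment over all features.

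Promoter windows matched 69 of the pathway genes by symbol, and 10 of them held TGATGNAA in any window, of which 3 also held TGNTGCAAT. Over all 32851 promoters the shares were 3.97% and 0.673%, counted per promoter and not per gene. Some pathway genes were listed as ATF4 targets, so the matches are no independent evidence. The 10 genes with TGATGNAA were Atf3, Nupr1, Jdp2, Slc7a11, Slc1a4, Pycr1, Got1, Pck2, Vldlr and Fgf21. Their log2 fold changes ran from -0.19 for Slc7a11 to 0.94 for Jdp2, with Fgf21 not tested. Atf3, a stress-induced bZIP factor described here after its value was seen, had 1.70 and 1.42 CPM with MERVL shRNA, against 1.08 and 0.503 CPM with random shRNA (0.94 ± 0.50, edgeR adjusted p = 0.478).

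The mean profile of the 10 members, on log2(CPM + 1) centred for each gene, was nearly flat: -0.02 and 0.14 in the MERVL shRNA libraries and -0.10 and -0.02 in the random shRNA libraries. Among 8939 other named genes of at least 10 CPM, the nearest to it by Euclidean distance over the 4 libraries were Suclg2, Angel1, Rpl8, Eif3h and Hax1, at 0.00690 to 0.0178. Of these genes, 87 lay as near as or nearer than Asns, the nearest member, at 0.0693, and the other members lay further off.

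The authors also deposited a normalized score for each gene and library, in which the random shRNA libraries lay closer together than in the counts. For 15720 genes present in both tables with values above 0, the median absolute log2 ratio between the random shRNA libraries was 0.33 in CPM and 0.03 in scores, whereas that between the MERVL shRNA libraries was 0.14 in both. The random shRNA libraries were closer in scores than in CPM in 9 of the 10 members and in 94.3% of all these genes. Chac1 had scores of 48 and 91 in the MERVL shRNA libraries and 63 and 64 in the random shRNA libraries. Sesn2 had 1291 and 1510 with MERVL shRNA and 1214 and 1194 with random shRNA, and so no longer overlapped. Atf4 had 3769 and 3808 with MERVL shRNA and 2986 and 2879 with random shRNA, and was the member whose random shRNA libraries were not closer.

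On log2(score + 1), limma called Atf4 (0.37, adjusted p = 0.0244) and Trib3 (0.42, adjusted p = 0.0366) higher and Phgdh (-0.34, adjusted p = 0.0447) lower. These are 3 of 10 members where 27.7% of all genes were called, 13.7% higher and 14.1% lower; with a pseudocount of 0.5, 27.6% were called. The spread between the random shRNA libraries that this test draws on is smaller than the one measured in the counts.

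**Figure D5:**
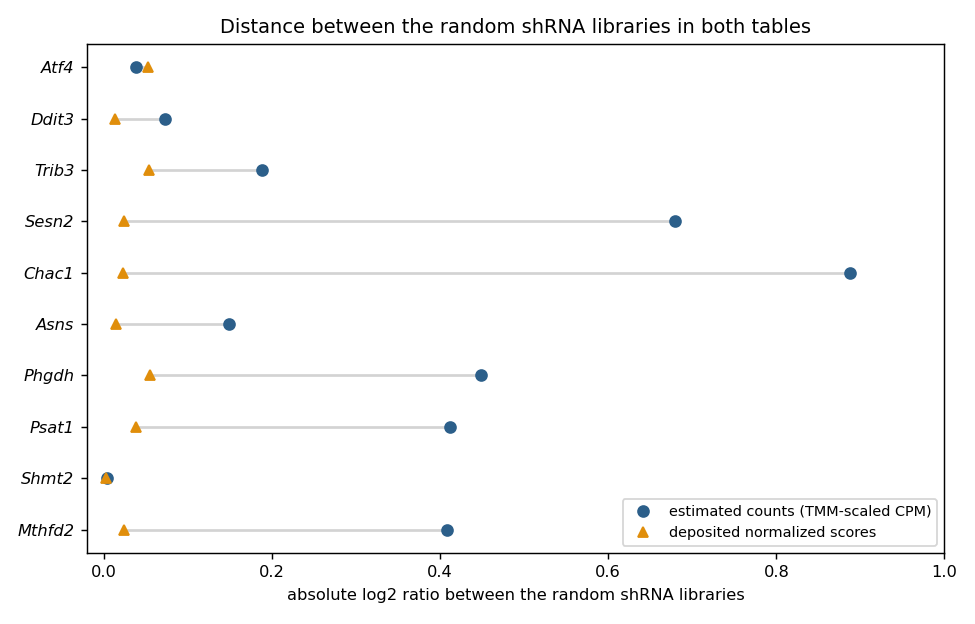
Absolute log2 ratio between the 2 random shRNA libraries (x axis) for each gene, in TMM-scaled CPM (blue circles) and in the deposited normalized scores (orange triangles). The ratio shrinks to 0.02 in scores for Chac1 and Sesn2, from 0.89 and 0.68 in CPM, and is about the same in both for Atf4 and Shmt2.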

How the data were processed

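Reads were handled with HISAT2 and Trim Galore on the mm10 build, per the submitters' processing notes; no source used here states versions, the counting program or its strand setting. The authors deposited estimated counts for 43496 Ensembl genes and 2277 MERVL copies; 19.1% to 20.8% of values per library were not whole, and they were rounded before testing. They also deposited a normalized score for 17823 features, by a method that no source used here states. Estimated counts were tested with edgeR 4.0.16 (R 4.3.3), TMM scaling, filterByExpr and the quasi-likelihood F test without a replicate term; SEs come from the F statistic and 95% intervals from its degrees of freedom. Scores with a mean of at least 1 were tested with limma 3.58.1. DESeq2 1.42.0 was an alternative. The edgeR fit with and without a replicate block, DESeq2, limma-voom and limma were tried on simulated data first. For limma these were scaled counts and not scores. The fits with other scalings, other filters, the smaller pseudocount or a library left out were not tried on simulated data. Symbols and exon lengths came from GENCODE M21 (GRCm38). Chi-square per degree of freedom was 6.48 within the MERVL shRNA pair and 35.4 within the random shRNA pair. In neither group was 1 library thus a copy of the other, and pairs across groups were not checked this way. The text names all members, the 3 genes of smallest p in each pathway list and other genes as stated. Members, lists, tests and alternatives were chosen with earlier results of these data known. A gene at low counts has less precision: Chac1 rests on 49 to 90 counts per library, and Asns rests on far more.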

Additional observations from a re-analysis of the deposited data

How the results depend on the processing

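Over 13 alternatives, 113 of 130 member fold changes kept their direction and did not pass, 13 kept it and passed, and 4 reversed: Chac1 was -0.32 without MERVL shRNA replicate 2 and -0.23 without random shRNA replicate 1, Sesn2 -0.13 without random shRNA replicate 2, and Mthfd2 0.043 without random shRNA replicate 1. With 1 library left out, Chac1 ranged from -0.32 to 0.67, Sesn2 from -0.13 to 0.54 and Mthfd2 from -0.36 to 0.043. The cause was not tested. Members called ranged from 0 to 3 higher and from 0 to 1 lower with 1 library left out, and were 2 higher and 1 lower on deposited scores with a pseudocount of 1 or 0.5. Other scalings, filters, DESeq2, limma-voom and a replicate block called no member. Members passed only in fits that also called a large share of all genes. On deposited scores with a pseudocount of 1, 13.7% of all genes were called higher and 14.1% lower. The shares for the fits without a random shRNA library stand beside their members in the Results. Passing in such fits therefore does not set the members apart.

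Over all genes, 1 was called higher and 0 lower. With no filter the counts were 270 higher and 467 lower, with DESeq2 70 and 104, with limma-voom 0 and 0 (839 and 891 before adjustment). On scores they were 2337 and 2402 (2327 and 2378 with a pseudocount of 0.5). With 1 library left out, they ran from 2 to 2557 higher and from 0 to 2243 lower. The median of the members ran from 0.03 without MERVL shRNA replicate 2 to 0.28 without MERVL shRNA replicate 1.

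With the replicate number as a block, 110 genes were higher and 252 lower, and 0 members passed. The differences between replicates 1 and 2 correlated at r = 0.25 between groups across genes, but no label ties equal numbers together, so the libraries share only a number. Counting error is widest relative to the level in Chac1, the member with the fewest counts, and its replicates differed by more than that error.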
